A study of Mus musculus with 4 samples.

Results

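The genes examined here encode 8 transcription factors of the myeloid blood lineages: Cebpa, Cebpb, Cebpd, Cebpe, Spi1, Irf8, Gfi1 and Klf4. They were taken by name and placed at their bounds in GRCm38.p6, the assembly behind mm10, and they are 8 of 21887 protein-coding genes on chromosomes 1 to 19, X and Y. Every peak whose summit, its highest point, lay inside one of these genes or within 100 kb of either end was taken, which gave 34 peaks in replicate 1 and 75 in replicate 2. The peaks came from chromatin immunoprecipitation with an antibody to the Flag tag (ChIP-seq), done on lineage-negative marrow cells, the fraction left after cells with mature-lineage surface markers are removed. The donors were 8-week-old C57BL/6 mice of the genotype 3xFlag-Nynrin-Tg, which carry a transgene for Nynrin with 3 copies of the Flag tag, and every library of the series shares that genotype. The labels do not give the promoter that drives the transgene, nor whether each replicate had its own animals, and where the replicates agree this may be only technical. There were 2 Flag ChIP libraries, whose peak lists were analysed, and 2 input libraries, which were not analysed here. The lists hold no expression values or read counts, so the cell type could not be checked against its markers and the depth behind each peak is unknown.

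Myeloid differentiation is directed by a small set of factors that act together on the same enhancers and promoters. PU.1, the ETS-family product of Spi1, opens the program in early progenitors. C/EBPα, from Cebpa, is required for the step to granulocyte and monocyte progenitors. C/EBPε, from Cebpe, drives the terminal maturation of neutrophils, while C/EBPβ and C/EBPδ, from Cebpb and Cebpd, serve in emergency and inflammatory responses. Irf8 and Klf4 favour the monocyte and dendritic cell fates, and Gfi1, a transcriptional repressor, favours the neutrophil fate and restrains stem cell proliferation. The C/EBP genes examined have no introns or few and lie within compact bounds, and several of these genes are known to be controlled by distal enhancers as well as by their promoters.

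In replicate 2 all 8 genes had a peak summit within 1000 bp of one of their ends, as did 45.5% of all protein-coding genes. In replicate 1, 5 of the 8 did, against 32.6% of all genes. The same 5 genes, Cebpb, Cebpd, Cebpe, Spi1 and Klf4, therefore had a summit at an end in both replicates, and such genes are termed called genes. Among all protein-coding genes 31.9% were called genes. The remaining members, Cebpa, Irf8 and Gfi1, had one in replicate 2 alone, a state found in 13.6% of all genes, and no member had one in replicate 1 alone, the state of 0.672% of all genes. With 8 genes taken by name, these shares are a description and were not tested. Replicate 2 also held more peaks, 25787 against 12702 in replicate 1. When replicate 2 was cut to its peaks of highest −log10 q so that the lists were equally long, 5 members were again called, against 30.1% of all genes.

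**Figure D1:**
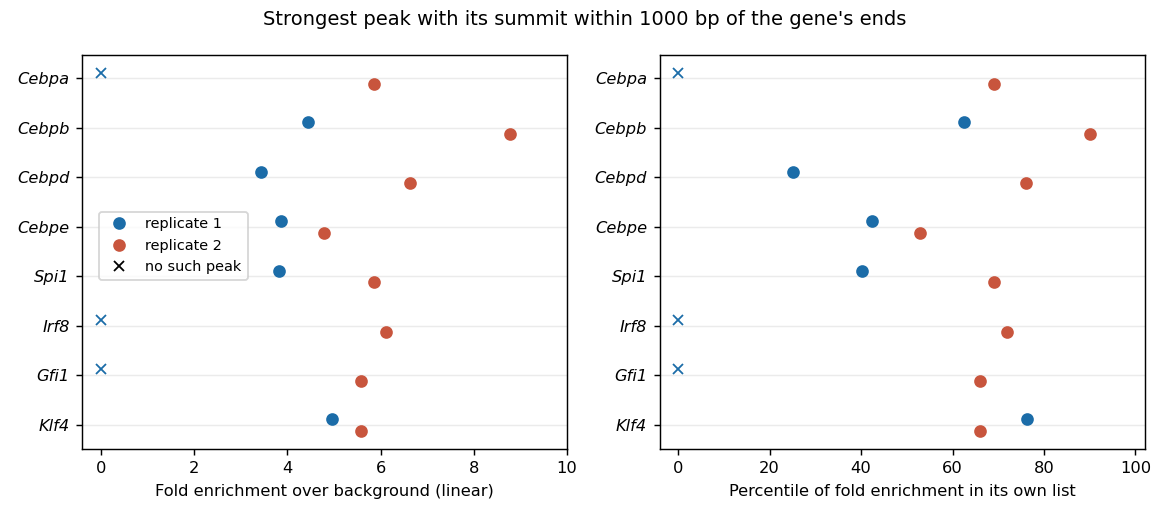
Strongest peak at an end of each gene (summit within 1000 bp of it), by replicate; the left panel gives the authors' fold enrichment on a linear scale and the right panel its percentile in its own list (100 is the strongest). Crosses mark Cebpa, Irf8 and Gfi1, which had no such peak in replicate 1, while all 8 genes had one in replicate 2, with Cebpb the highest and Cebpe, at the 52.8 percentile, the lowest.

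Fold enrichment, the authors' ratio of the signal at a peak to the background the peak caller estimated there, had a median of 4.04 over all of replicate 1 and 4.66 over all of replicate 2. Because the scale can differ between libraries, sizes are read within a list only. In replicate 1 the strongest peak at an end had a fold enrichment of 4.96 at Klf4, 4.45 at Cebpb, 3.86 at Cebpe, 3.81 at Spi1 and 3.43 at Cebpd, which placed them between the 25.1 and 76.2 percentile of that list. In replicate 2 the values were 8.77 at Cebpb, 6.63 at Cebpd, 6.11 at Irf8, 5.85 at both Cebpa and Spi1, 5.58 at both Gfi1 and Klf4, and 4.78 at Cebpe. All 8 were above the median of that list, from the 52.8 percentile at Cebpe upward, with Cebpb the highest. Cebpa, Irf8 and Gfi1, the genes without a replicate 1 summit at an end, stood at the 69.0, 71.9 and 65.9 percentile of replicate 2, inside the range of the called members. They were thus not the weakest of the 8 in replicate 2. When a fold enrichment of at least 5 was required in both lists, no member was called, against 9.52% of all genes, because no replicate 1 peak at a member's end reached it.

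The sequence before the start site could be read for 5 of the 8 genes from RefSeq (GRCm38.p6). Shown here are the 250 bases before the start of Cebpb and Klf4, which peaks of both replicates covered in full, and of Cebpa and Irf8, which a replicate 2 peak covered in full and no replicate 1 peak touched. Each is written 5′ to 3′ on the strand of the gene. Capitals mark matches on either strand to the GC box (GGGCGG), the CCAAT box, the TATA box (TATAAA) and the E-box (CACGTG).
Cebpb (chr2:167688665-167688914, plus strand): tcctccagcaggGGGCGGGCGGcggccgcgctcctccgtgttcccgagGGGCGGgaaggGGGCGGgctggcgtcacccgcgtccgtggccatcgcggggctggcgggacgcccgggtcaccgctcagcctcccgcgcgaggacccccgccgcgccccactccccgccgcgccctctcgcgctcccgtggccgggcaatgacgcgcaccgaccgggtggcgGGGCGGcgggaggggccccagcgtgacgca
Klf4 (chr4:55532476-55532725, minus strand): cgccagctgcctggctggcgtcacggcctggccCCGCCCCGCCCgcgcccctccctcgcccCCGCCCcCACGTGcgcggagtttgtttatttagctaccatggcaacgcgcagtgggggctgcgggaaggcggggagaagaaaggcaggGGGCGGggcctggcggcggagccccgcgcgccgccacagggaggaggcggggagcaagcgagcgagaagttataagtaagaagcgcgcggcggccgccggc
Cebpa (chr7:35119043-35119292, plus strand): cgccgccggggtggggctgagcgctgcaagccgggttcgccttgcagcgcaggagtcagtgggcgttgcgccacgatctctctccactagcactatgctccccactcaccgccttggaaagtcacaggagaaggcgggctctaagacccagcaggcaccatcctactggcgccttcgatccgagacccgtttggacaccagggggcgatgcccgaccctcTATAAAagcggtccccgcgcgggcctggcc
Irf8 (chr8:120736108-120736357, plus strand): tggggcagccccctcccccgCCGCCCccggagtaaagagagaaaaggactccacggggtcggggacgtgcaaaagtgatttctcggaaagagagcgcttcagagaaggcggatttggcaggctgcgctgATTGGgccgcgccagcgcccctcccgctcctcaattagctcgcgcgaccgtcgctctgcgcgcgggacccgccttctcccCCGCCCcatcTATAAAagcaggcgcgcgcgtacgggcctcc

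The 2 called genes shown hold the most GC boxes, 5 before Cebpb and 4 before Klf4, some of them overlapping. Irf8 has 2 and Cebpa and Gfi1 have none. A GC box was present in 37.0% of 10583 such sequences over protein-coding genes, in 62.4% of those of called genes and in 25.6% of the others. TATAAA begins 30 bases before the start in Cebpa and 31 before it in Irf8. It is absent from the windows of Cebpb and Klf4, which were called, and of Gfi1, which like Cebpa and Irf8 had an end peak in replicate 2 alone. It was present in 15.7% of all such sequences, 6.49% of those of called genes and 19.8% of the others. CCAAT, as ATTGG, was found once, before Irf8 (37.4% of all), and CACGTG once, before Klf4 (6.17% of all). CACCC, a core of sites for KLF factors, was found before Cebpa, Cebpb and Gfi1 (49.9% of all). No window of the 5 held TGACGTCA (1.89% of all), the C/EBP palindrome TTGCGCAA (0.142%), the PU.1-type site GAGGAAGT (2.10%) or the NRF1 palindrome (1.00%). A match is a match of letters only.

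Vertebrate promoters rich in the dinucleotide CpG are often active in many cell types, and the called genes of the whole series followed CpG content. The ratio of CpG observed to that expected from base composition was 1.03 before Irf8, 0.985 before Cebpb, 0.941 before Klf4, 0.801 before Cebpa and 0.594 before Gfi1, against a median of 0.431. Of genes with a ratio over 0.9, 76.2% were called genes, and of those between 0.6 and 0.9, 57.4% were. The share was 23.1% between 0.3 and 0.6 and 3.51% under 0.3. Cebpb and Klf4, which were called, and Irf8, which was not, lay in the highest class, Cebpa in the class below, and Gfi1 just under 0.6. CpG content thus moved with the calls, and its part in the members' peaks was not tested.

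**Figure D2:**
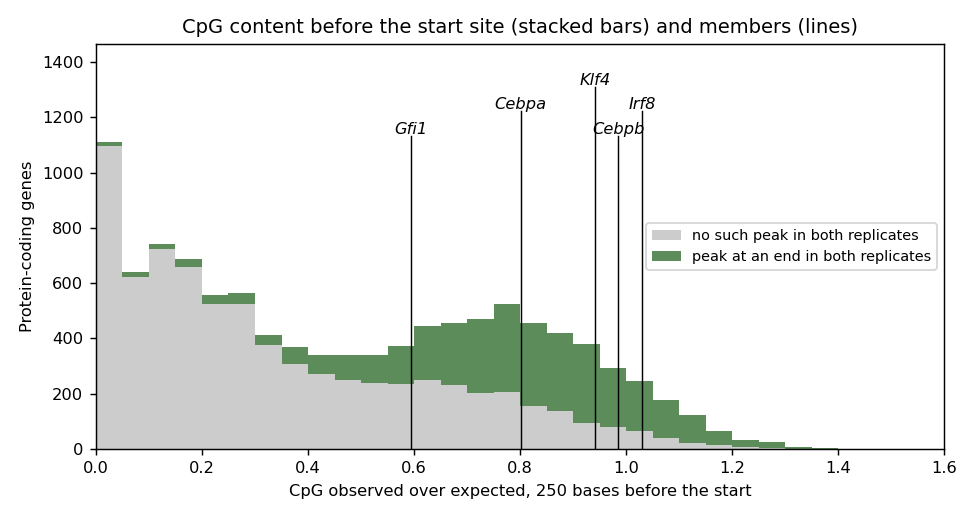
Number of protein-coding genes (vertical axis, stacked bars) by the ratio of observed to expected CpG in the 250 bases before the start, split by whether a peak lay at an end in both replicates; lines mark the 5 members with a sequence. All 5 lie above the median of 0.431, and the green share grows to the right, from 3.51% under 0.3 to 76.2% over 0.9.

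Among the C/EBP genes, Cebpb, which encodes the factor of emergency granulocyte production, had the broadest peak. The gene spans chr2:167688915-167690432, 1518 bp. Its replicate 1 peak ran from 167688272 to 167690245 and covered 87.7% of the gene, and its replicate 2 peak ran from 167687046 to 167692291 and covered all of it. At 1974 and 5246 bp these peaks were among the widest of their lists, at the 98.8 and 100.0 percentile, where median widths were 523 and 620 bp. The summits lay 205 and 370 bp inside the start, and the −log10 q values were 9.76 and 19.8. The call held when the window was narrowed to 500 bp and when −log10 q of at least 5 was required.

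Cebpb also lay in the densest neighbourhood of the 8. It had 11 replicate 1 peaks within 100 kb, and all 11 overlapped a replicate 2 peak. Only 511 of the 21887 genes had as many shared peaks, and the median gene had 2. Of the 11, 8 lay away from gene ends, which here means over 1000 bp from those of all protein-coding genes, and 142 genes had as many of these. The window holds few genes, with 4 ends of other protein-coding genes against a median of 8. The strongest of the shared peaks in replicate 1 lay 54.4 kb below the gene, between genes and 2515 bp from Ube2v1 (fold enrichment 7.85 and 9.48), at the 98.5 and 92.8 percentile. In replicate 2 the strongest lay 85.1 kb above the gene, where a single peak of 3643 bp (167774878 to 167778520, fold enrichment 13.3, 99.3 percentile) spanned 2 replicate 1 peaks with fold enrichments of 5.03 and 4.41. Another shared peak lay 63.6 kb above (4.45 and 9.83).

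Nearer to Cebpb, a shared peak lay 7.70 kb above the gene (4.14 and 5.31), at an end of the noncoding gene A530013C23Rik. At the lower edge of the window a replicate 2 peak (10.2) spanned a pair of replicate 1 peaks (5.05 and 4.97) at ends of the noncoding genes Gm31619 and Gm11475. The ubiquitin-conjugating variant gene Ube2v1 had a peak 135 bp from its end in replicate 1 and 4 bp in replicate 2 (4.48 and 13.0). The neighbour Tmem189 had one at its end (2.54 and 8.24) and one inside it (4.32 and 7.97). Replicate 2 held 11 further peaks in this window that no replicate 1 peak overlapped, with fold enrichments from 3.45 to 7.44. The nearest of them lay 3540 bp below the gene (6.11), so peaks surround Cebpb on both sides in that list.

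Cebpd, which encodes a C/EBP factor induced by cytokines, was flanked by a peak at each end in both replicates. The gene spans chr16:15887286-15889545. At the lower-coordinate end replicate 1 had a peak at 15886625 to 15888164 and replicate 2 one at 15886688 to 15888175, nearly the same bounds, with summits 360 and 337 bp outside the gene (fold enrichment 3.43 and 6.63). The peak past the higher-coordinate end had summits 629 and 576 bp outside it (3.36 and 4.52) and lay inside the neighbour Spidr, within 1000 bp of that gene's end. The latter peak therefore also met the rule for Spidr, a DNA repair gene, with summits 950 and 897 bp from its end, farther than from Cebpd. The only other peaks within 100 kb were those at an end of Mzt2 (3.23 and 5.92), so all 3 replicate 1 peaks here were shared and replicate 2 added none.

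Cebpe, the gene of late neutrophil maturation, spans chr14:54710363-54712174, and its peaks lay outside its higher-coordinate end. The replicate 1 peak ran from 54712426 to 54713042 with its summit 709 bp from the end (fold enrichment 3.86), and the replicate 2 peak ran from 54712144 to 54712586 with its summit 214 bp away (4.78). They overlapped over a short stretch, covered at most 1.71% of the gene, and had −log10 q values of 3.85 and 6.25. The call was lost with a 500 bp window and with −log10 q of at least 5. A shared peak lay 8.90 kb below the gene, between genes (4.33 and 3.72). Replicate 2 alone had peaks 4222 bp below the gene (5.23) and 2169 bp above it (4.66). Of the shared peaks of the window 3 were at neighbours, at the ends of Acin1 and 1700123O20Rik (4.71 and 12.5), of Cdh24 and Acin1 (4.91 and 7.44) and of the proteasome gene Psmb5 (3.62 and 5.67). In replicate 1 the peak at Psmb5 was the weakest of the 5 in the window, below that at Cebpe itself, and all 5 were shared.

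Cebpa, the gene of the factor required for granulocyte and monocyte progenitors, had no replicate 1 peak at all within 60 kb. It spans chr7:35119293-35121928. In replicate 2 a peak from 35118037 to 35119696 had its summit 52 bp inside the start (fold enrichment 5.85, −log10 q 9.49), and a second peak inside the gene (35120019 to 35120760, 4.25) brought the covered part to 43.5%. A pair of replicate 2 peaks lay 5003 and 5592 bp above the gene (4.78 and 3.99), and no replicate 1 peak was nearer than 60473 bp to any of these. The single replicate 1 peak of the window was 62.6 kb below Cebpa, and was strong. It lay at the ends of Cebpg, the neighbouring C/EBP-family gene, and Gm45095, with fold enrichments of 7.22 and 10.9, at the 97.0 and 96.7 percentile. The C/EBP gene of this locus with a strong shared peak was thus Cebpg and not Cebpa.

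Spi1, which encodes PU.1, had a peak at its lower-coordinate bound in both replicates and many more within its outer bounds in replicate 2. The bounds used, chr2:91082374-91115759, are the outer bounds of 4 RefSeq transcripts, 1 of them a predicted model, and the annotation does not say which transcript begins where. The lower bound therefore need not be the main promoter. As background, Spi1 has a well-studied upstream regulatory element that lies before its main promoter. At the bound replicate 1 had a peak at 91082581 to 91083148 and replicate 2 a wider one at 91081686 to 91083847, with summits 738 and 719 bp inside it (fold enrichment 3.81 and 5.85). The call was lost with a 500 bp window.

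A second pair of Spi1 peaks missed each other by 57 bp. The replicate 1 peak (91095918 to 91096232, fold enrichment 3.27) and the replicate 2 peak (91096290 to 91097185, 6.38) lay 13.7 and 14.3 kb inside the lower bound. They did not overlap and so were not counted as shared. Whether this pair or the peak at the lower bound lies at the main promoter could not be read from the annotation. In all, replicate 2 had 8 summits within the outer bounds of Spi1, and replicate 1 had 2. Of the 5094 protein-coding genes of 20 to 50 kb, 0.118% had at least 8 in replicate 2, and the median was 1. The count and the length class rest on the outer bounds, so some of the summits may lie before the main promoter. The 8 had fold enrichments from 2.99 to 6.38, at the 3.34 to 74.4 percentile of replicate 2. The one at the bound was the only one shared. The comparison with genes of 20 to 50 kb was chosen after its values were seen. The other shared peaks near Spi1 were all at neighbours' ends: Slc39a13 (6.20 and 9.83), Madd with the liver X receptor gene Nr1h3 (4.56 and 7.44), and Nr1h3 with Acp2 (5.53 and 6.64).

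Irf8, the gene of an interferon regulatory factor for monocytes and dendritic cells, differed between the lists as Cebpa did. It spans chr8:120736358-120756694. In replicate 2 a peak from 120735942 to 120736827 had its summit 4 bp before the start (fold enrichment 6.11, −log10 q 10.4). In replicate 1 the nearest peak was 66831 bp away from that one. Replicate 2 alone also had peaks 50.2 and 38.4 kb below the gene (5.31 and 3.45), 9845 bp inside it (3.45) and 36.7 kb above it (3.19). The only replicate 1 peaks were 2 at the ends of Cox4i1, a respiratory complex gene, with Emc8 and Gm27021 (4.87 and 3.33), both within 1 replicate 2 peak (8.77). No listed alternative setting that required both replicates made Irf8 or Cebpa a called gene.

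Gfi1, the repressor gene, spans chr5:107716655-107725805 on the minus strand, and its peaks overlapped between replicates without meeting the rule. The replicate 2 peak was 2351 bp wide (107724055 to 107726405) with its summit 230 bp before the start (fold enrichment 5.58). The replicate 1 peak was 295 bp wide (107724601 to 107724895, 3.37), lay wholly inside the replicate 2 peak, and had its summit 1171 bp from the end, just past the 1000 bp limit. RefSeq lists a second start for Gfi1 inside the gene, and the replicate 1 summit lay 291 bp before that one. With a 3000 bp window Gfi1 was called, as were 36.8% of all genes, and it was also called when any listed start took the place of the gene ends (34.5%). The second of these rules was chosen after the peak was seen, and it let the replicates meet it at different starts. Neither listed start of Gfi1 had the summits of both replicates within 1000 bp. The replicate 1 summit lay 1171 bp from the first start, and the replicate 2 summit lay 1692 bp from the second.

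Around Gfi1, the replicate 1 summits of all 4 shared peaks lay away from protein-coding gene ends. For the peak inside the gene this holds by the replicate 1 summit only, since its replicate 2 partner is the peak at the start. The window held 2 ends of other genes. Of all genes, 44.3% had at least 1 such peak and Gfi1 stood at the 94.2 percentile by their number. Besides the one inside the gene, they lay 17.6 kb below it at an end of the noncoding gene 4930428O21Rik (5.40 and 5.58), 8.36 kb below it (4.54 and 3.19) and 24.0 kb above it inside Evi5 (5.11 and 6.38). All 3 exceeded the peak inside Gfi1 in fold enrichment in replicate 1. Replicate 1 alone had a peak 51.3 kb above the gene, also inside Evi5 (3.98). Replicate 2 alone had 3, of which the strongest lay 28.5 kb below the gene (6.64).

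Klf4, which encodes a zinc finger factor of monocytes that is also known from reprogramming, had the strongest replicate 1 peak at an end among the 8. It spans chr4:55527137-55532475 on the minus strand. The replicate 1 peak ran from 55532420 to 55532905 with its summit 111 bp before the start, and the replicate 2 peak ran from 55532234 to 55533450 with its summit 293 bp before it (fold enrichment 4.96 and 5.58). Replicate 2 had a further small peak inside the gene, 661 bp from the same end (3.79). No other protein-coding gene had an end in the window, and the sole other peak was shared and lay 91.1 kb above the gene (3.32 and 5.31). Klf4 stayed called with the 500 bp window, with −log10 q of at least 5 and at the gene start alone.

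**Figure D3:**
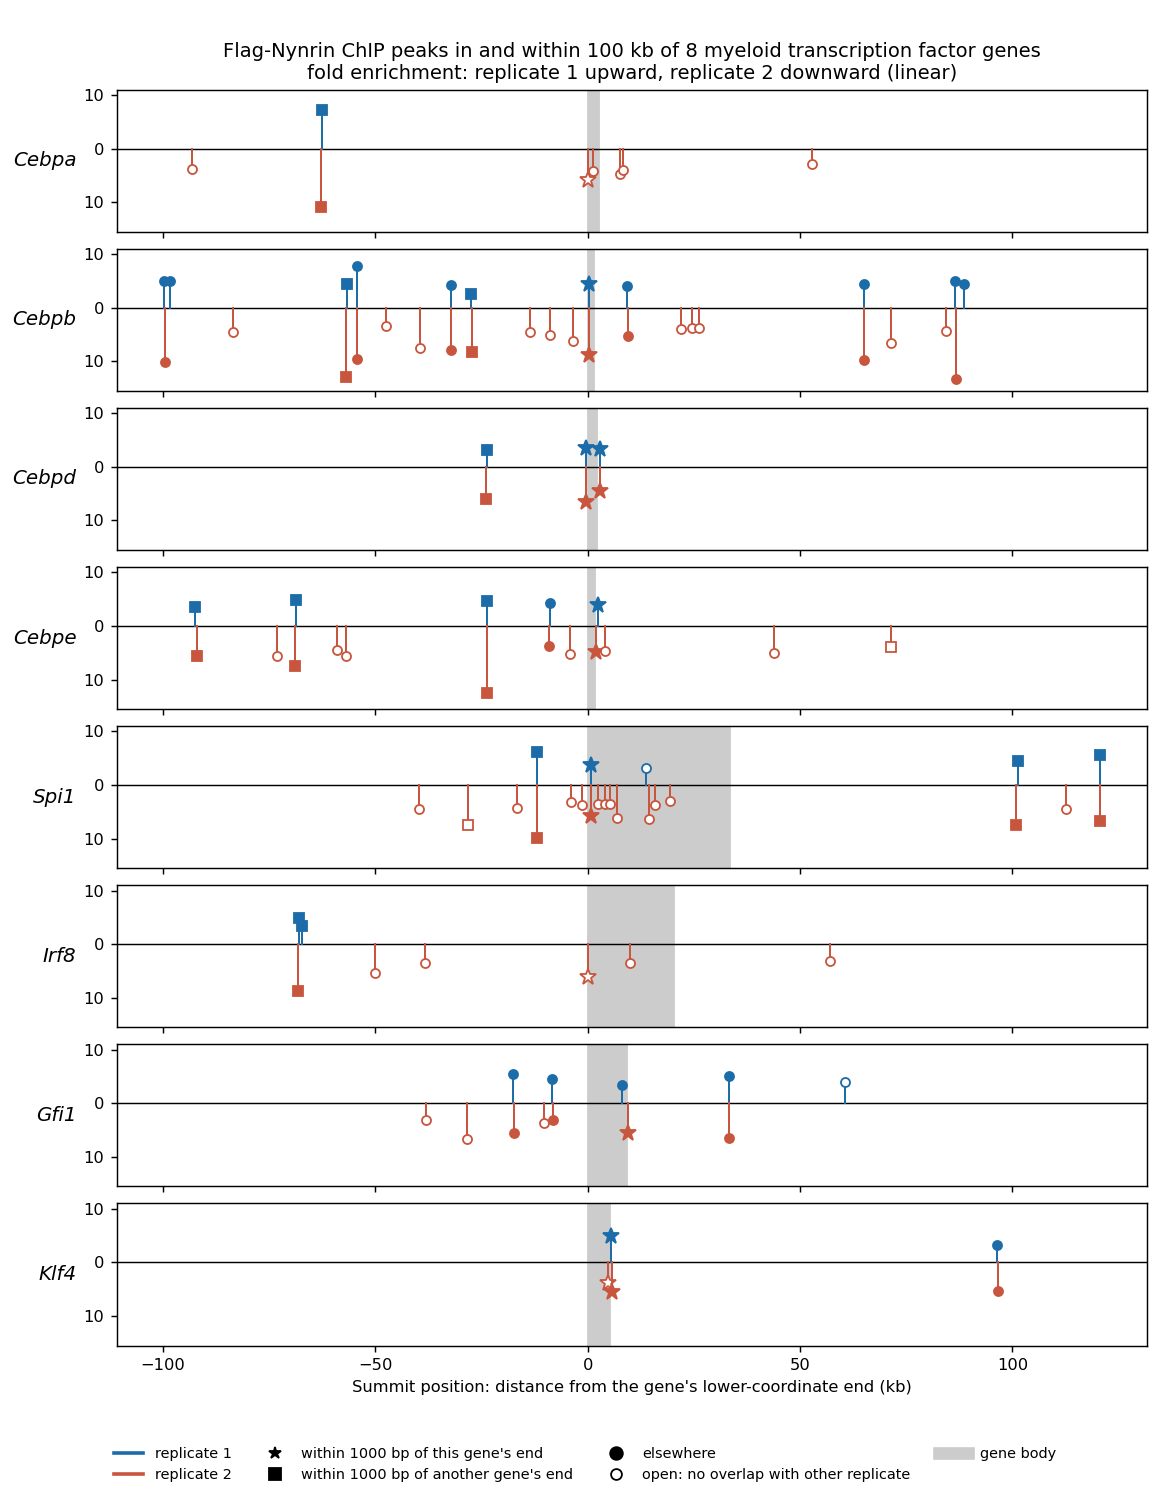
Every peak in or within 100 kb of the 8 genes, drawn at the distance of its summit from the gene's lower-coordinate end (kb), with fold enrichment upward for replicate 1 and downward for replicate 2; grey bars are gene bodies, stars and squares mark summits within 1000 bp of an end of the gene or of another protein-coding gene, and open symbols mark peaks without overlap in the other replicate. Cebpb shows 11 replicate 1 peaks, all filled, while Irf8 and Cebpa show open stars in replicate 2 and no replicate 1 star.

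Over all 8 windows, 32 of the 34 peaks of replicate 1 (94.1%) shared at least 1 bp with a peak of replicate 2, against 89.2% of the whole list. Of the 75 peaks of replicate 2, 29 (38.7%) did so with replicate 1, against 41.8% of the whole list. The unshared replicate 2 peaks were weaker, with a median fold enrichment of 4.25 against 6.64 for the shared ones. Placed by their replicate 1 summits, 6 of the 32 shared peaks lay at an end of a member, 12 at an end of another gene, 1 inside a member, 2 inside another gene and 11 between genes. The 14 in the last 3 classes made 43.8% of the shared peaks, close to the 44.7% over the whole series. By replicate 2 summits, 11 of the 29 shared peaks were away from ends, none of them inside a member. The 14 came from Cebpb (8), Gfi1 (4, of which 1 has a replicate 2 partner with its summit at the Gfi1 end), Cebpe (1) and Klf4 (1), and 5 of them were at ends of noncoding genes, by the same 1000 bp rule. Without Cebpb the shared peaks numbered 21 and those away from gene ends 6. Every member had at least 1 shared peak in its window, as did 69.2% of all genes. At least 1 peak of replicate 1, shared or not, was found near 70.4% of all genes, and at least 1 of replicate 2 near 77.7%.

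The number of shared peaks ranged from 1 at Cebpa to 11 at Cebpb. Irf8 and Klf4 had 2, Cebpd 3, Spi1 and Gfi1 4 and Cebpe 5. Except for Cebpb, at the 98.1 percentile of all genes, the members stood between the 38.0 and 80.3 percentile. Spi1 and Cebpe had 18 and 15 such ends, and 3 shared peaks at such ends each. Klf4 had 0 such ends, Gfi1 2 and Cebpb 4.

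**Figure D4:**
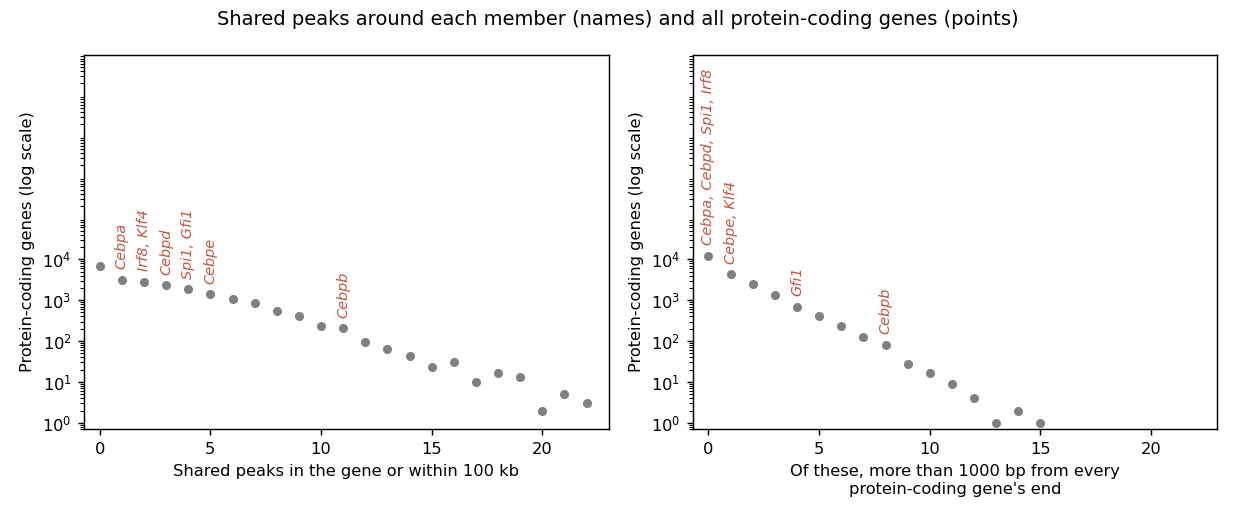
Number of protein-coding genes (log scale) with each number of shared peaks in the gene or within 100 kb (left), and with each number of those whose replicate 1 summit was away from protein-coding gene ends (right); member names stand above the point they belong to. Cebpb lies furthest right of the members in both panels, with 11 and 8 peaks, where the highest counts of any gene are 22 and 15. Gfi1 has 4 in each, 1 of them with a replicate 2 summit at its end.

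Related genes were examined with the same rule in 10 lists that share no gene with the members or with each other. The share called over all protein-coding genes, 31.9%, stands beside each of them. Of 12 genes listed as relatives of the C/EBP factors, 6 were called genes. They were led by Cebpg, by the stress factor genes Ddit3 (fold enrichment 6.41 and 13.0) and Atf4 (5.85 and 13.3), and by Cebpz (5.68 and 12.2). All 4 stood above every member by the lower of their percentiles in the replicates. Whether Cebpz is a relative of the C/EBP factors beyond its symbol was not examined. In the same list Nfil3, named after its values were seen, had a summit at an end in replicate 1 alone (0.672% of all genes). In replicate 2 alone 3 genes of the list had one (13.6% of all genes). Of 25 ETS-family genes other than Spi1, 8 (32.0%) were called, close to the 31.9% over all genes. They included Elf2 (7.74 and 9.30), Elk4, Etv6 and Elf1. Of 10 IRF-family and IRF2-binding genes, 7 (70.0%) were called, including Irf2bp2 (6.13 and 11.1), Irf9, Irf2bp1 and Irf3. Among the relatives and cofactors of Gfi1, 5 of 12 (41.7%) were called, which were Zbtb17, Rcor1, Hdac1, Snai1 and, with the lowest rank and named after its values were seen, the demethylase gene Kdm1a. The paralogue Gfi1b, like Gfi1, had a summit at an end in replicate 2 alone, a state of 13.6% of all genes. Of 25 KLF and SP genes other than Klf4, 12 (48.0%) were called, led by Klf13 (7.29 and 10.7), Klf2 (8.01 and 10.6), Klf11 and Klf16.

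Of 34 other regulators of myeloid cells, 15 (44.1%) were called, including Runx1, Egr1, Jun and Rela, and 9 more had a summit in replicate 2 alone (13.6% of all genes), among them Gata2, Myb and Zeb2, named after their values were seen. Jund, Nr4a3 and Nfkb1 had one in replicate 1 alone (0.672% of all genes), and were also named after their values were seen. Of 38 receptor and effector genes of myeloid cells, 12 (31.6%) were called, including Ncf4 (7.77 and 7.71), S100a8 (6.82 and 7.17), Cd68 and Itgam. In replicate 2 the share was 68.4%, against 45.5% of all genes, and 14 genes had a summit in replicate 2 alone, a state of 13.6% of all genes. These 14 included the receptor gene Csf1r and the granule genes Elane, Prtn3 and Ctsg, and were named after their values were seen. Of 14 genes listed as erythroid and megakaryocyte factors, 8 (57.1%) were called, led by Nfe2 (5.96 and 9.03), Mafk, Nfe2l2 and Mybl2. Tal1 and Zfpm1 were also called, while Gata1 and Ldb1 had no summit at an end in either replicate. Lmo2, Lyl1 and Bcl11a had one in replicate 2 alone (13.6% of all genes), and Foxo3 in replicate 1 alone (0.672%). The genes beyond the leading ones were named after their values were seen. Of 19 lymphoid factor genes 2 (10.5%) were called, Tcf3 (6.32 and 11.6) and Tbx21 (2.98 and 3.72), and 8 (42.1%) had a summit in replicate 2, where the share in all genes was 45.5%. Of 28 factors of lineages outside the blood, such as Myod1, Pax6 and Hnf4a, 0 had a summit at an end in either replicate. No test was made of any list, and the share called in both replicates was 31.9% over all genes.

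**Figure D5:**
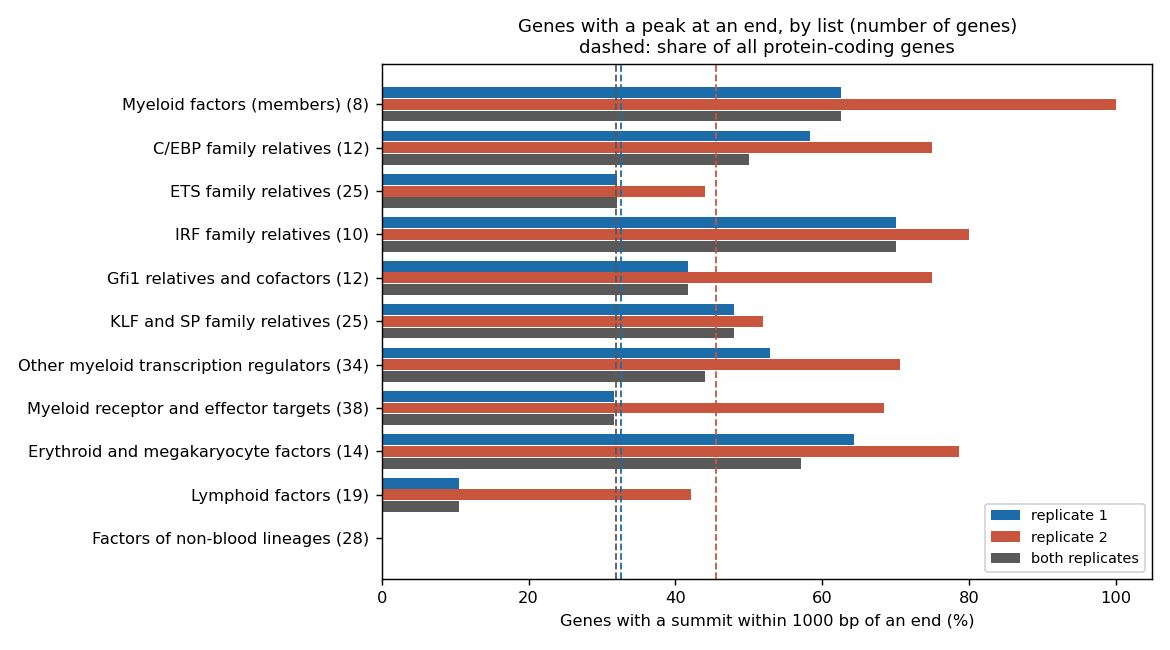
Percent of genes with at least 1 summit no more than 1000 bp from an end in replicate 1, in replicate 2 and in both, for the 8 members and 10 lists of related genes (number of genes in brackets); dashed lines give the same 3 shares over all protein-coding genes. The members reach 62.5% in both and 100.0% in replicate 2, and the factors of lineages outside the blood are at 0 in all 3.

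Gene length was also set beside the calls, since both ends of a short gene can fall near 1 peak. The members Cebpa, Cebpb, Cebpd and Cebpe are 1518 to 2636 bp long. Among all 3399 protein-coding genes of at most 3000 bp, 12.5% were called, a lower share than over all genes, while 3 of these 4 were. This split was chosen after the members' values were seen. The short genes were not matched to the members by CpG content, with which the calls moved. By CpG content Cebpb and Cebpa lay in classes of which 76.2% and 57.4% were called, and Cebpd and Cebpe had no sequence to class.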

How the data were processed

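Flag ChIP-seq peak lists of 2 libraries were used. Per the submitters' processing notes, reads were handled with MACS2, Bowtie2, Trimmomatic, cutadapt, FastQC and ChIPseeker on mm10. What is not given in the sources used here includes tool versions, the cutoff and the control for peak calling. For each peak the authors deposited bounds, a summit, a fold enrichment (a linear ratio), −log10 p and −log10 q, and a score that equals 10 times −log10 q cut to a whole number, which was not used. Libraries were made with the TruePrep kit and amplified by PCR, per the labels' protocols. Peaks were listed separately per library, with names numbered within each deposited file.

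Peaks off chromosomes 1 to 19, X and Y were left out (14 and 20). Summits were placed against gene bounds (1000 bp), and peaks sharing at least 1 bp were termed shared. Percentiles are ranks of fold enrichment within a list. Strand was known for 17492 of the 21887 genes, and start-site sequences that match a gene bound for 10583. The 9 motifs were counted on both strands. The members and lists were chosen with earlier results of these data known, so no list was tested. All members, all shared peaks near them, the neighbours at those peaks, and up to 4 called genes of each list (by the lower of the percentiles in the replicates) were named. The procedures were checked on planted peaks. Depth per library is unknown, so no counting interval is given. Alternatives changed the window, threshold, flank, overlap rule, list length and replicates. Python 3.11.15, numpy 2.4.6 and pandas 2.3.3 were used.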

Additional observations from a re-analysis of the deposited data

How the results depend on the processing

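The number of called members was 5 of 8, with 31.9% of all genes called. It was 3 with a 500 bp window (27.9% of all genes), 0 with a fold enrichment of at least 5 (9.52%), 8 without replicate 1 (45.5%) and 5 without replicate 2 (32.6%). At gene starts alone it was 2 of the 5 members with a known strand (31.9%). At any listed start, a rule chosen after seeing the data, it was 3 of 5 (34.5%). Under that rule the replicates could meet it at different starts, as they did at Gfi1. It was 4 with −log10 q of at least 5 (21.1%), 6 with a 3000 bp window (36.8%), and 5 with lists of equal length (30.1%) or overlapping peaks at the same end (31.6%). Shared peaks near members numbered 32, against 17 with a flank of 50 kb, 59 with 200 kb, 16 with overlap of 50% of both peaks, 21 with summits within 200 bp, 21 with −log10 q of at least 5 and 8 with fold enrichment of at least 5. The flanks change the count by construction. The overlap of 50% and the minimum −log10 q or fold enrichment can only lower it, also by construction. The cause of the size of each change was not tested. Shared peaks away from gene ends were 14, and 11 to 18 with other windows. Depth is unknown, and replicate 1 held fewer peaks, so a missing replicate 1 summit at the ends of Cebpa, Irf8 or Gfi1 does not show absence. At Gfi1 a replicate 1 peak did lie inside the gene, with its summit 1171 bp from the end. No paired analysis was possible because the input libraries, which share replicate numbers with the ChIP libraries, were not analysed here and no test between groups was made.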
